A study of Homo sapiens with 2 samples.

Results

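The genes described here are the activating transcription factors ATF1, ATF2, ATF3, ATF4, ATF5 and ATF7 together with JDP2, NUPR1 and NFIL3, factors that share their binding sites or act with them under stress. They were taken by name, and every probe set whose single platform gene symbol was among these 9 was a member. The list of names was drawn up with earlier results of these data known. Of the 9 genes 8 had such a probe set, out of 18417 named genes in all, and they held 9 probe sets, 2 of them for ATF4. ATF1 was not analysed here. RNA came from U251, an established human glioblastoma cell line, grown in high-glucose DMEM. The cells had received either 5 µM G-TPP or the solvent DMSO, each for 6 h. G-TPP is a Gamitrinib, a compound that carries an Hsp90 inhibitor into mitochondria on a triphenylphosphonium group, and Hsp90-type chaperones of mitochondria are its intended target. Each condition was 1 array, and no genotype or transgene separates them. Since neither condition was repeated, the differences below carry no error and no test, and they compare these arrays rather than the treatments.

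ATF proteins are basic leucine zipper (bZIP) factors: a basic stretch contacts DNA and a zipper pairs the protein with a partner of the same class. ATF1 belongs with CREB and answers to cyclic AMP, ATF2 and ATF7 are switched on by JNK and p38 kinases, and ATF3 and JDP2 often act as repressors. ATF4 is the main effector of the integrated stress response, in which phosphorylation of eIF2alpha slows most translation but favours that of ATF4 through open reading frames ahead of its own, so its transcript level is not a reading of its protein. ATF3, ATF5 and NUPR1 are known downstream of ATF4, and ATF5 is known as a survival factor of glioblastoma cells.

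Promoter sequences show which of the sites read by these factors stand close to the members' own starts. The RefSeq promoter table (GRCh38.p14) spans 250 bases before to 50 bases from each start and has 18 entries for 7 of the 9 genes, with none for ATF2 or NUPR1. Shown here are 1 entry each for ATF3, ATF4 and NFIL3, which had a probe set more than 2-fold higher, and the JDP2 entry with the most matches. Each is written 5′ to 3′ on the strand of its gene, and capitals mark matches to a searched motif.
ATF3, chr1:212565157-212565456, plus strand: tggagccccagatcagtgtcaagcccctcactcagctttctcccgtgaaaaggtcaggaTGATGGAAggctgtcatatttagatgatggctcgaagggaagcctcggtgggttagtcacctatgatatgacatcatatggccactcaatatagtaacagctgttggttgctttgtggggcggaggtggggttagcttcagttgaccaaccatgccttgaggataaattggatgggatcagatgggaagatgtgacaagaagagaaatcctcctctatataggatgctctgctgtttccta
ATF4, chr22:39520309-39520608, plus strand: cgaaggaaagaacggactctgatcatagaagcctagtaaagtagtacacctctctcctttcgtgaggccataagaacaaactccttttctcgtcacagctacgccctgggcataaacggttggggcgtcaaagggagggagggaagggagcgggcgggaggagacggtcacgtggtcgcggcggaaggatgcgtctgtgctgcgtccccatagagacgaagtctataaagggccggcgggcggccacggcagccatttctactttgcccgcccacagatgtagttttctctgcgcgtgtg
NFIL3, chr9:91424577-91424876, minus strand: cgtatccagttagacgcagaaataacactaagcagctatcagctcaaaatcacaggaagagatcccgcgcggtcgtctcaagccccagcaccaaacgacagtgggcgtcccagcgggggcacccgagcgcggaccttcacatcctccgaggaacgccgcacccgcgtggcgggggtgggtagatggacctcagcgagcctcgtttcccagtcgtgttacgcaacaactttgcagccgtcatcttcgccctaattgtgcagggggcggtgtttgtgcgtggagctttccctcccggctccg
JDP2, chr14:75427772-75428071, plus strand: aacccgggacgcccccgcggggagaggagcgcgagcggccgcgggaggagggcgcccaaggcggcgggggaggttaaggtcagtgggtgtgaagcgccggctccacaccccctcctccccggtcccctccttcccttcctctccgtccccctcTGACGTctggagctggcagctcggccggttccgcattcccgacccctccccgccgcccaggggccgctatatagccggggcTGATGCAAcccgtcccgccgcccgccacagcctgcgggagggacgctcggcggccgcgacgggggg

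Both strands were searched for 6 motifs. The composite of a C/EBP and an ATF site, TGATGNAA, is the form read by ATF4 with a C/EBP partner. It stood in 2 of the 18 member entries, 11.1%, and in 3.62% of all 35116 promoters in the table. The ATF3 match is tgatggaa, beginning 191 bases before the start of its first entry. The JDP2 match is tgatgcaa, beginning 16 bases before the start of its second entry. ATF3 had 2 entries, and any start of a gene without an entry was not searched. The cAMP response element TGACGTCA was in 0 of the 18 entries and in 1.85% of all promoters. Its first 6 letters, TGACGT, were found 97 bases before the start of the second JDP2 entry and in 7.98% of all promoters. The AP-1 site TGANTCA was in 1 entry, the first of ATF5, and in 7.71% of all promoters. The D-box, to which NFIL3 binds, was searched in a loose form, TTANGTAA, where N is any base. This form was in 2 entries, the second of ATF3 and the first of JDP2, and in 2.18% of all promoters. On the strand of the gene the ATF3 match reads ttacttaa and the JDP2 match ttacataa. The ER stress element (ERSE) was in 0 of the 18 and in 0.0769% of all promoters. No searched motif overlapped another in these entries, and several entries of a gene can share bases. A match describes letters in this window and says nothing about binding in these cells.

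Among the members NFIL3, NUPR1 and ATF3 were higher with G-TPP, while ATF5 and ATF7 were nearly level and ATF4 depended on the probe set. ATF5 is known downstream of ATF4, as NUPR1 and ATF3 are. Whether ATF4 had a part in any of these values was not tested. A value here is a deposited intensity, the brightness of a probe set on a linear scale, and differences are log2 of G-TPP minus log2 of DMSO. At least 2-fold higher were 4 of the 9 member probe sets, and 0 were at least 2-fold lower. Among the 11656 probe sets with 1 gene symbol that passed a filter on brightness, the shares were 2.75% higher and 0.54% lower. The filter asks that the brighter array reach an intensity of 239.2. All 9 member probe sets passed it, 8 of them in the DMSO array alone and 1, that of ATF3, only through the G-TPP array. The median log2 difference over the member probe sets was 0.48, and over all those past the filter it was -0.04.

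**Figure D1:**
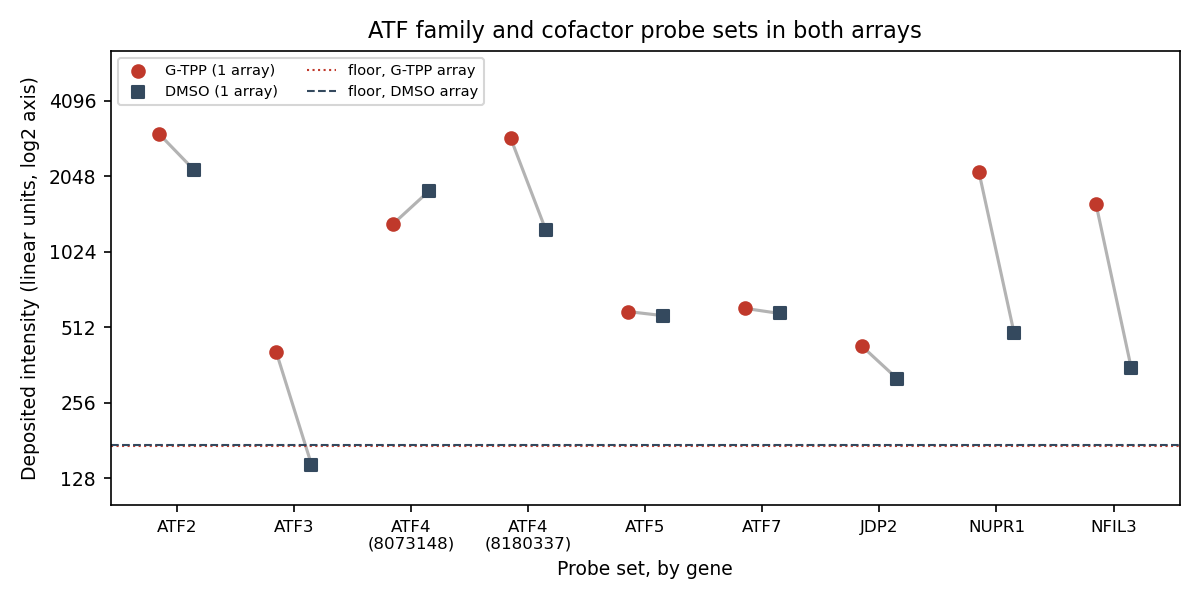
Deposited intensity (linear units on a log2 axis) of the 9 member probe sets, with the G-TPP array as circles and the DMSO array as squares, 1 array each. Grey lines join the values of a probe set, and the nearly coincident horizontal lines are the floors of 172.0 in the G-TPP array and 174.2 in the DMSO array. NFIL3, NUPR1, ATF3 and ATF4 by probe set 8180337 stand well higher with G-TPP, and ATF4 by probe set 8073148 stands lower.

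NFIL3, also called E4BP4, is a bZIP repressor that competes with the circadian activators of the PAR bZIP group for D-box sites. Its probe set 8162276 had an intensity of 1587 with G-TPP and 353.1 with DMSO. This was 4.50-fold higher, a log2 difference of 2.17. Only 48 of the 11656 probe sets past the filter, 0.412%, counting NFIL3 itself, had a difference as high. Among 39 bZIP genes past the filter NFIL3 had rank 3 by log2 difference, after DDIT3, which encodes CHOP, at 3.06 and XBP1, the factor of the IRE1 branch of the unfolded protein response, at 2.24, although the gap to XBP1 is under the spread of 0.19 given for silent genes in the account of NUPR1.

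NUPR1 encodes a small disordered chromatin-associated protein, also called p8, that is induced by many kinds of cell stress. Its probe set 8000574 had an intensity of 2132 with G-TPP and 486.3 with DMSO, 4.38-fold higher and a log2 difference of 2.13. This lay 0.04 below that of NFIL3, less than the standard deviation of 0.19 that log2 differences showed over 360 olfactory receptor probe sets, which stand in for genes without expression. The order of NUPR1 and NFIL3 was not resolved, and it turned with 64 added before logs (1.997 for NUPR1 and 1.99 for NFIL3). As high were 50 of the 11656 probe sets. NUPR1 has no bZIP domain and is not counted among the 39.

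ATF3, a repressor and activator induced early in almost every stress response, had a probe set (7909610) at 406.3 with G-TPP and 144.9 with DMSO. The DMSO value was under the floor of that array, 174.2, which is the 95th percentile of the olfactory receptor probe sets there, while the G-TPP value was 2.36 times the floor of its own array. A signal for ATF3 above the floor was therefore seen with G-TPP only. Against the floor ATF3 was at least 2.33-fold higher. This bound is a log2 difference of 1.22. The ratio of the deposited values, with the DMSO value not above the floor, was 1.49 on the log2 scale, and 1.17 with 64 added to every intensity.

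**Figure D2:**
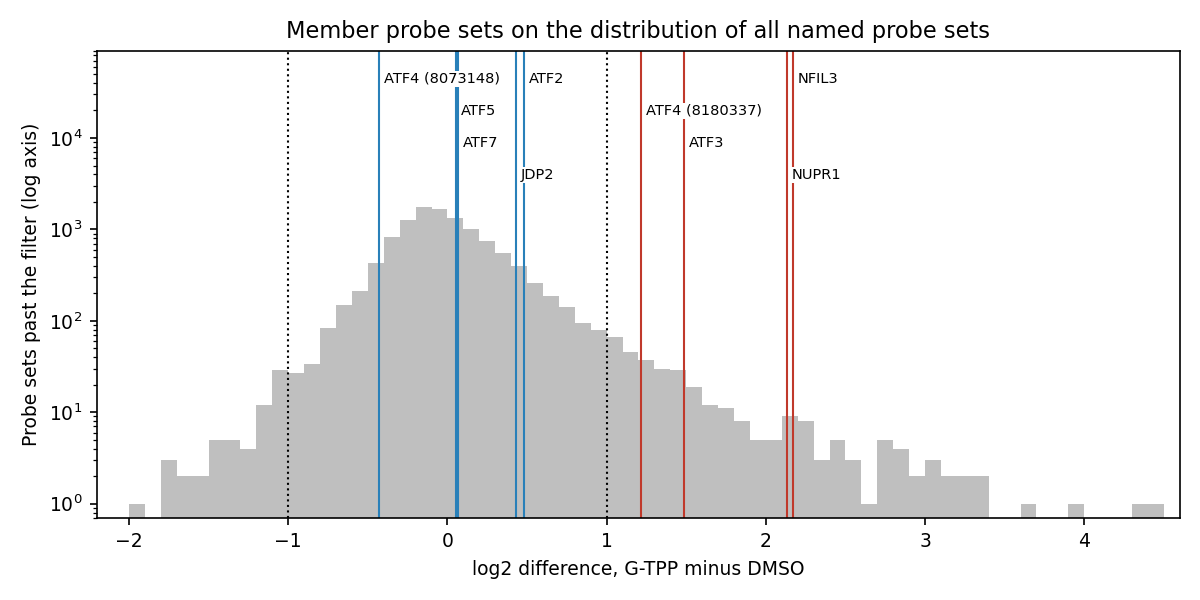
Histogram (log axis) of log2 differences, G-TPP minus DMSO, over the 11656 named probe sets past the filter, with a line at each member probe set, red where at least 2-fold higher and blue otherwise. Dotted lines mark 2-fold. NFIL3 and NUPR1 lie far out in the upper tail, ATF3 and ATF4 by probe set 8180337 between 1 and 1.5, and the other members within the bulk.

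The probe sets of ATF4 pointed opposite ways. Probe set 8180337 had an intensity of 2919 with G-TPP and 1255 with DMSO, 2.33-fold higher, a log2 difference of 1.22. Probe set 8073148 had 1327 with G-TPP and 1785 with DMSO, 1.34-fold lower, a log2 difference of -0.43. Both stood at least 7.21 times above the floor in both arrays, so neither value was dim. The annotation ties each probe set to a different one of the 2 current RefSeq transcripts of ATF4.

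The gap between them was 1.64 on the log2 scale. It was the largest of 422 genes with more than 1 probe set past the filter, whose gaps had a median of 0.06 and a 95th percentile of 0.54. Some of the 422 genes had a gap of 0, and such genes lower both of these values. The disagreement in ATF4 was known when the rule for these genes was set, so its rank is a description only. Of these 422 genes 14 had a probe set at least 2-fold higher. In 6 of the 14 all probe sets reached 2-fold, and ATF4 was the only one with another probe set below 0. The next largest gaps were those of LRRFIP1 (1.36 over 8 probe sets), EIF4A2 (1.24) and TPT1 (1.15). In each of these 3 the low probe set was lower with G-TPP and none was at least 2-fold higher.

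No single number for ATF4 follows from these values. The mean of the log2 differences was 0.40. The intensities summed over both probe sets were 4246 with G-TPP and 3040 with DMSO, 1.40-fold higher. Probe sets differ in how brightly they report the same transcript, so the sum weighs them unequally. RefSeq lists 4 pseudogenes named after ATF4, near copies that can share probes with it, and none of them had a named probe set. The values of ATF4 are uncertain to that extent.

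**Figure D3:**
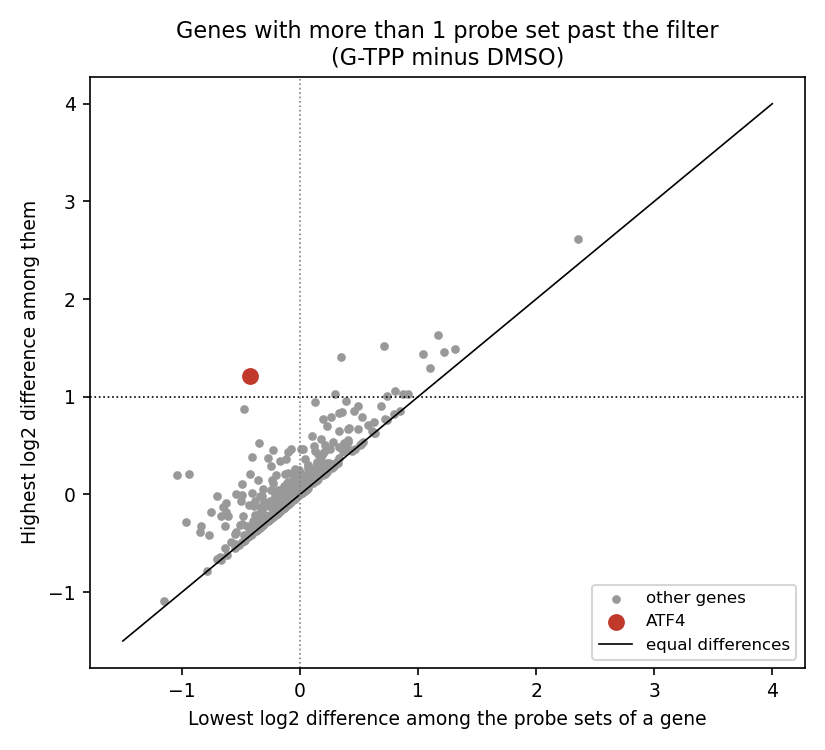
For each of the 422 genes with more than 1 probe set past the filter, the lowest log2 difference (G-TPP minus DMSO) among its probe sets on the horizontal axis and the highest on the vertical axis. The diagonal marks equal differences, the dotted lines 0 and 2-fold. ATF4 (red) lies farthest from the diagonal, at -0.43 and 1.22.

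ATF2 and JDP2 were moderately higher. ATF2, a partner of JUN that JNK and p38 phosphorylate, had an intensity of 3022 with G-TPP and 2165 with DMSO (probe set 8056909), 1.40-fold higher with a log2 difference of 0.48. JDP2, the JUN dimerisation protein that represses AP-1 sites and is close to ATF3 in sequence, had 430.6 with G-TPP and 319.6 with DMSO (probe set 7975787), 1.35-fold higher with a log2 difference of 0.43. Neither reached 2-fold. Differences as high as theirs were common, at 9.99% of probe sets past the filter for ATF2 and 11.6% for JDP2.

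ATF5 and ATF7 differed by less than the olfactory receptor spread of 0.19. ATF5, the factor tied to the mitochondrial unfolded protein response in mammals, had an intensity of 591.6 with G-TPP and 569.8 with DMSO (probe set 8030557), a log2 difference of 0.05. ATF7, the close relative of ATF2 that also helps to silence chromatin, had 609.1 with G-TPP and 581.1 with DMSO (probe set 7963698), a log2 difference of 0.07. Differences as high were seen in 37.4% and 35.8% of the probe sets. Each of these genes stood at least 3.27 times above the floor in both arrays.

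Genes with the most similar pair of values were looked up for each member probe set past 2-fold, by the distance between points whose coordinates are the log2 intensities in the G-TPP and the DMSO array. With only these 2 arrays likeness means a similar brightness and a similar difference. Nearest to NFIL3 were EIF2AK3, which encodes the eIF2alpha kinase PERK, at a distance of 0.09 and the neutral amino acid transporter gene SLC1A4 at 0.10. Nearest to NUPR1 was FICD, which encodes the enzyme that AMPylates BiP, at 0.18. Nearest to ATF3 were TNFRSF9 at 0.03 and BCHE at 0.14, but the DMSO values of all 3, 144.9 for ATF3, 142.6 for TNFRSF9 and 153.7 for BCHE, were under the floor and have no order there. Nearest to ATF4 by probe set 8180337 were the antiproliferative gene BTG1 at 0.03 and the serine synthesis gene PSPH at 0.06.

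Genes that ATF4 and CHOP are known to drive were mostly higher. From here each gene is given by its brightest probe set. The list of these genes and the lists below were drawn up with earlier results of these data known. Their shares and medians are therefore descriptions only. Of 48 genes listed, members left out, 46 were on the array and past the filter. At least 2-fold higher were 31 of these 46, 0 were at least 2-fold lower and 15 were under 2-fold, against 2.8% higher and 0.55% lower among all 11091 genes past the filter. The median log2 difference was 1.31, beside -0.04 over all genes. CTH, which makes cysteine from cystathionine, was at 3477 with G-TPP and 173.9 with DMSO, marginally under the floor, so at least 19.96-fold higher. PPP1R15A, which encodes the eIF2alpha phosphatase subunit GADD34, was 9.83-fold higher, and ALDH1L2, a folate enzyme of mitochondria, at least 8.37-fold. Below 0 were 4 genes, with ALDH18A1, an enzyme of proline synthesis, the lowest at 1081 with G-TPP and 1569 with DMSO, a log2 difference of -0.54.

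**Figure D4:**
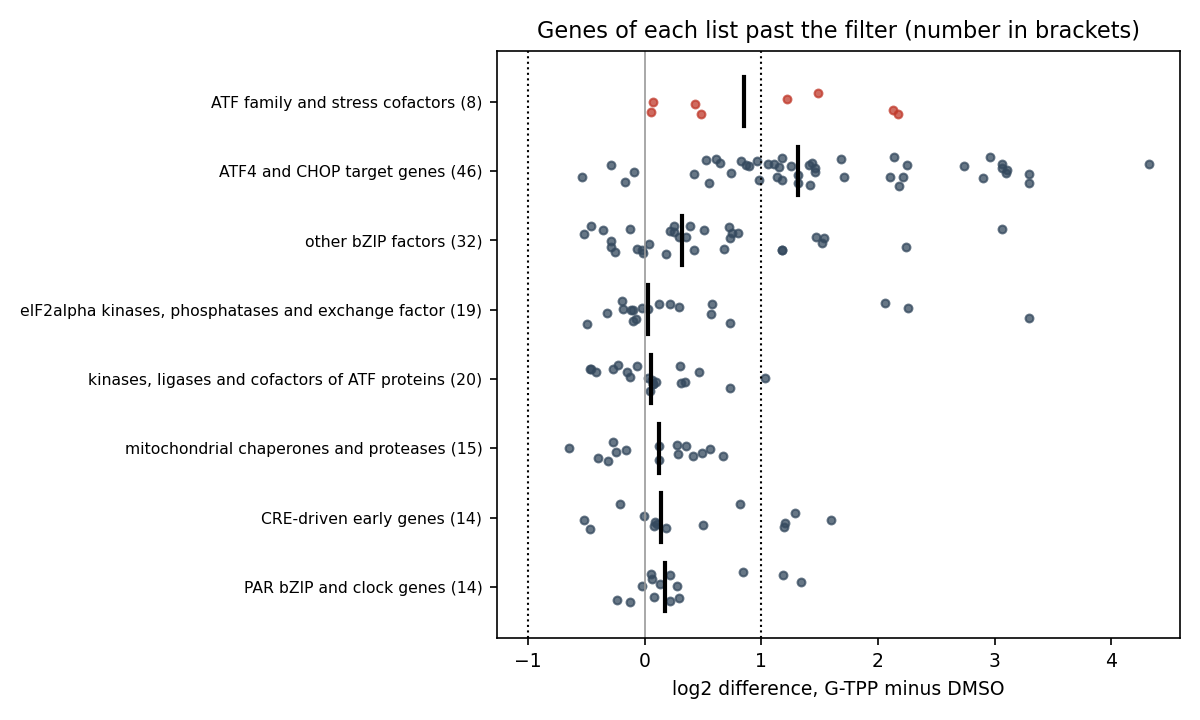
Log2 difference (G-TPP minus DMSO) of each gene past the filter in the member list (red) and 7 related lists (dark), by brightest probe set, with the list median as a black bar and 2-fold as dotted lines. Of the lists drawn, that of ATF4 and CHOP targets has the highest median, 1.31, and the eIF2alpha list the lowest, 0.03. The lists were chosen with earlier results of these data known.

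Among the steps ahead of ATF4 a few genes were far higher, while most were under 2-fold. Of 19 genes for eIF2alpha kinases, phosphatases, the eIF2B exchange factor and their regulators, 3 were at least 2-fold higher, 0 at least 2-fold lower and 16 under 2-fold, beside 2.8% and 0.55% at 2-fold over all genes. The median log2 difference was 0.03 and the mean 0.45. The 3 were PPP1R15A, EIF2AK3 at 4.79-fold (1689 with G-TPP and 352.8 with DMSO) and DNAJC3, which encodes the PERK and PKR inhibitor p58IPK, at 4.17-fold. PPP1R15A was also counted in the list of ATF4 and CHOP targets. EIF2B4, a subunit of eIF2B, was lowest at -0.50. Kinases, ubiquitin ligases and cofactors that act on ATF proteins had a median of 0.05 over 20 genes. At 2-fold in that list was 1 gene, RPS6KA5, which encodes the kinase MSK1 of CREB and ATF1, at 274.0 with G-TPP and 133.8 with DMSO. The DMSO value was under the floor, and against the floor the gene was at least 1.57-fold higher. The coactivator gene CREBBP had a log2 difference of 0.73 and the CREB coactivator gene CRTC1 one of -0.47.

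Other bZIP genes, the possible dimer partners, were more mixed. Of 32 past the filter 7 were at least 2-fold higher and 0 at least 2-fold lower, beside 2.8% and 0.55% over all genes. The median log2 difference was 0.32. DDIT3, CEBPB and CEBPG are also in the list of ATF4 and CHOP targets, so the counts of these lists overlap. After DDIT3 and XBP1 the highest was CREB3L2, a membrane-bound factor, at 1670 with G-TPP and 575.7 with DMSO, 2.90-fold higher. CEBPG and CEBPB, named after their values were seen because they encode partners of ATF4, were each 2.26-fold higher, and JUN, a partner of ATF2, ATF3 and JDP2 named on the same basis, was 2.77-fold higher. JUNB was the lowest, at 419.5 with G-TPP and 603.0 with DMSO, a log2 difference of -0.52. Of the 32 genes 22 were above 0 and 10 below. Among those below were CEBPA at -0.26, CEBPE at -0.35 and FOSL2 at -0.46, named after their values were seen. Of the relatives of ATF1, CREB1 had a log2 difference of 0.25, and CREM was under the floor in both arrays, also named after the values were seen.

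Lists tied to single members were also counted. Chaperones and proteases of mitochondria, the response for which ATF5 is known, had 0 of 15 genes at 2-fold in either direction and a median log2 difference of 0.13. With 2.8% higher and 0.55% lower over all genes, a count of 0 in so short a list is near the background. The extremes were GRPEL2, an exchange factor of mitochondrial Hsp70, at 0.67 with LONP1, the matrix protease gene, at 0.56, and the protease gene HTRA2 at -0.65. TRAP1, the intended target, was at 2297 with G-TPP and 2850 with DMSO by its brightest probe set, a log2 difference of -0.31, and its other probe set had one of 0.06. Early genes with a cAMP response element, which answer to CREB and ATF1, had a median of 0.14 over 14 genes and 4 at least 2-fold higher. They were the phosphatase gene DUSP1 at 3.02-fold, the phosphodiesterase gene PDE4B at 2.30-fold, NR4A2 and, named after its values were seen, RGS2, which damps G protein signals, at 2.29-fold. NR4A2, a nuclear receptor gene, was however at 258.2 with G-TPP and 105.6 with DMSO, at least 1.48-fold higher against the floor. For the circadian partners of NFIL3 the median was 0.18 over 14 genes. NR1D2, which encodes the repressor REV-ERB beta, was 2.53-fold higher and PER2 2.28-fold higher, BMAL1 had a log2 difference of 0.84 and NR1D1 one of -0.24. DBP, the PAR bZIP activator that shares sites with NFIL3 and was named after its values were seen, was level at 624.6 with G-TPP and 633.3 with DMSO.

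Over all 33297 probe sets the median intensity was 215.5 with G-TPP and 224.8 with DMSO, and the log2 difference was -0.11 for ACTB and -0.06 for GAPDH, which served as controls. Markers of the astroglial lineage were present in part: CD44, VIM and SOX2 were above the floor in both arrays, GFAP was at 231.5 with G-TPP and 245.2 with DMSO, and ALDH1L1, AQP4 and S100B were under the floor in both arrays. In that list of 14, summed intensity was 20188 with G-TPP and 25377 with DMSO. Of its 10 genes past the filter 2, PDGFRA and SOX2, were at least 2-fold lower, beside 0.55% over all genes. SOX9 had a log2 difference of -0.98, and 3 of the 10 genes were above 0. Of 30 markers of immune, endothelial, epithelial, neuronal and blood or liver cells, 15 were under the floor in both arrays and 10 passed the filter, with log2 differences from -0.47 to 0.01. The brightest was the epithelial marker KRT8, named after its values were seen, at 1809 with G-TPP and 2167 with DMSO. The summed intensity of these markers was lower with G-TPP in all 5 lists. These sums include values under the floor, and the median over all probe sets was also lower with G-TPP (215.5 against 224.8). The part of these markers in the members' values was not tested. In RNA from whole cultures a change in the make-up of the cells and a change of RNA per cell cannot be told apart.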

How the data were processed

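Gene expression was measured on Affymetrix arrays of U251 cells, 1 with G-TPP and 1 with DMSO, from 6 µg of total RNA extracted with Trizol, per the labels' protocols. The authors deposited 1 intensity per probe set on a linear scale, made with RMA in Affymetrix Expression Console 1.1.2 per the submitters' processing notes. RMA makes the arrays' distributions alike, so a change in total RNA per cell is not visible, and the step to a linear scale is not given in the sources used here. The number of arrays limits the precision.

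Groups follow the agent in the labels. Probe sets were named through the platform annotation, updated by gene ID to RefSeq symbols (GRCh38.p14). Of 33297, 19460 had 1 symbol, 1754 several and 12083 were not listed; 19429 of the first kind matched RefSeq and 31 kept the old symbol. Log2 was taken with no pseudocount. A probe set was past the filter if its brighter array reached the median of that value, 239.2. Calls were by size, 2-fold or more. A dimmer value under the olfactory receptors' 95th percentile was replaced by it and the fold given as a lower bound. Named were all members, the 3 largest differences per list and the largest in the other direction, the 2 nearest genes (1 of them is not reported here), TRAP1, ACTB and GAPDH; other genes are marked in the text, except those with the next largest probe set gaps and the astroglial markers. The members and lists were chosen with earlier results of these data known. Alternatives were 3 normalizations, 2 pseudocounts, 2 thresholds, 2 filters and the handling of probe sets. The computation was checked on simulated data with known changes, which gives no error rate for these arrays. Tables were handled in pandas 2.3.3 and numpy 2.4.6 under Python 3.11.15, lowess came from statsmodels 0.14.6, and matplotlib 3.10.9 drew the figures.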

Additional observations from a re-analysis of the deposited data

How the results depend on the processing

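Each member probe set kept its sign and its side of 2-fold with centring on the median, lowess centring, quantile normalization and 16 or 64 added before logs. Over these the log2 difference ranged from 1.99 to 2.23 for NFIL3, from 1.997 to 2.19 for NUPR1, from 1.17 to 1.58 for ATF3, from 1.17 to 1.28 for ATF4 probe set 8180337 and from -0.47 to -0.37 for ATF4 probe set 8073148. ATF3 moved by more than the olfactory receptor spread with 64 added, to 1.17. The count of member probe sets at least 2-fold higher was 2 at a 3-fold threshold, NFIL3 and NUPR1, since the others lie between 2-fold and 3-fold. With ATF4 as the mean over its probe sets, 3 genes were at least 2-fold higher. At the 75th percentile filter the count of member probe sets was also 3, as ATF3 did not pass. The shares over all probe sets or genes at these settings were not counted, so no background stands beside these counts. List medians moved with 2 choices. At the 75th percentile filter, which leaves fewer genes, they were 0.73 for other bZIP factors and 0.60 for early genes with a cAMP response element. The mean in place of the median was 1.54 for ATF4 and CHOP targets, 0.45 for the eIF2alpha list and 0.42 for the early genes. For kinases, ligases and cofactors of ATF proteins the median was -0.00129 after quantile normalization. Of 109 alternative values 102 stayed within the spread or count limit. Some of these could not have differed. Median centring moved every probe set by 0.06, under the spread of 0.19, and all 9 member probe sets passed the filter. A count of 3 in place of 4 was within the count limit. No paired analysis was possible because each condition has 1 array, and for the same reason no replicate could be left out. ATF3 with DMSO is limited by the floor.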
